A study of Homo sapiens with 8 samples.

Results

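The neutrophil-attracting CXCL chemokine genes CXCL1, CXCL2, CXCL3, CXCL5, CXCL6 and CXCL8 were selected by gene name and made up 6 of the 31461 genes listed in the deposited table. Their expression was measured by RNA-seq in 8 libraries of lung cancer cell lines, 2 for each of 4 groups. The groups were cells labelled H1299 (NCI-H1299, a large cell carcinoma line) transfected with miR-29a-3p, H1299-labelled cells transfected with a control microRNA (miR-ctrl), cells labelled A549 (a lung adenocarcinoma line) transfected with miR-29a-3p, and A549-labelled cells transfected with the control. All were labelled wild type, and no untransfected library was analysed here. The series design names a search for target genes of miR-29a-3p, a microRNA known for repressing collagen genes. No source used here gives its dose or the hours between transfection and harvest.

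The proteins of this family carry a glutamate-leucine-arginine (ELR) motif before their first cysteines. They are secreted, bind the receptors CXCR1 and CXCR2 on neutrophils and draw these cells into tissue. Epithelial and tumour cells of the lung are known to switch the genes on through NF-κB after interleukin-1, tumour necrosis factor or interleukin-17, and the messenger RNAs are known for a short life set by AU-rich elements.

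Values are FPKM, fragments scaled to transcript length and library size, so levels of different genes could be set side by side. Estimated library totals ran from 12221310 to 15614821 fragments, with 12021 to 12837 genes at 1 FPKM or more. Marker genes lay opposite to the line labels. CDKN2A, a cell cycle inhibitor deleted in A549, averaged 0.073 FPKM after miR-29a-3p and 0.082 in the controls labelled H1299, against 28.1 and 24.3 FPKM labelled A549. ALDH1A1, an aldehyde dehydrogenase abundant in A549, averaged 1441 and 797 FPKM labelled H1299, against 48.1 and 59.2 FPKM labelled A549. Lines are therefore named as labelled, and each difference between them holds for the label. Of 12 leukocyte markers, CD68, also a lysosomal gene of other cells, alone reached a mean of 1 FPKM in a group. The 12 summed to 24.7 and 26.3 FPKM after miR-29a-3p and 8.87 and 8.70 in controls labelled H1299, against 22.8 and 20.2 and then 18.6 and 18.8 FPKM labelled A549. CD68 made up most of these sums, and its part in the chemokine results was not tested. Of the 12, 7 were under 0.1 FPKM in every group or not listed, among them the neutrophil genes CSF3R and FCGR3B. CD14 averaged 0.96 FPKM after miR-29a-3p and 0.53 in controls labelled H1299, and 0.14 and 0.12 labelled A549. FPR1 averaged 0.15 and 0.094 FPKM, and S100A12 0.12 and 0, labelled H1299, and both were at 0 labelled A549. LYZ was higher labelled A549 (0.10 and 0.11 FPKM) than labelled H1299 (0.012 and 0). The 6 fibroblast markers summed to 4.04 and 3.93 FPKM after miR-29a-3p and 2.37 and 2.30 in controls labelled H1299, and to 0.34 and 0.27 and then 0.36 and 0.51 FPKM labelled A549. LUM and COL1A1 reached 1 FPKM. LUM rose by 0.50 labelled H1299 (adjusted p = 0.0010 by limma), from 0.88 FPKM in controls to 1.66 after miR-29a-3p. Genes had to reach 1 FPKM in 2 libraries to be tested. LUM did so only through that miR-29a-3p group, so the filter favoured a rise. COL1A1 was not called there (0.14, adjusted p = 0.15). The part of these genes in the chemokine results was also not tested. None of 5 endothelial markers reached 1 FPKM.

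The transfected microRNA and the promoters of the family are shown first, since the seed sets which messages the microRNA can pair with and the promoters share a run of bases. Mature miR-29a-3p comes from chr7:130876748-130876769 on the minus strand of GRCh38.p14 (RefSeq), with its seed, bases 2 to 8, in capitals.
hsa-miR-29a-3p: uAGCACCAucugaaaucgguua
None of the 6 genes held the 7-base seed match TGGTGCT, or its 6-base core GGTGCT, in the longest 3′ UTR of its coding transcripts in GENCODE release 29. Over 11632 tested genes with an annotated 3′ UTR, 16.4% held the 7-base match and 34.2% the core. The absence says only that these letters were not in these windows.

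The same 3′ UTRs were rich in AUUUA, the core of the AU-rich elements through which factors such as tristetraprolin (ZFP36) speed the decay of chemokine messages. CXCL2 held 10 copies in 721 bases, or 13.9 per kb, and CXCL3 held 7 in 673 bases, or 10.4 per kb. CXCL8 held 9 in 1252 bases (7.19 per kb), CXCL1 held 5 in 706 (7.08), CXCL5 held 11 in 1995 (5.51) and CXCL6 held 6 in 1119 (5.36). The median over the 11632 genes was 1.68 per kb, and between 93.0% and 99.6% of those genes had fewer per kb than each of these 6.

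The 6 promoters (RefSeq, GRCh38.p14, 250 bases before to 50 after each start) had 1 longest run of bases in common, 9 long, found after the sequences were compared. It is shown in capitals with 30 bases before and 35 after it, read 5′ to 3′ on the strand of each gene.
CXCL1: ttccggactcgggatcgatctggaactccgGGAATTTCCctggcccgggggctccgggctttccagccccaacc
CXCL2: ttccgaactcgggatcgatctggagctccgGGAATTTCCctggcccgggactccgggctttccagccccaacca
CXCL3: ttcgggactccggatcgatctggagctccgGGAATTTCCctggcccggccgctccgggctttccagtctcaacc
CXCL5: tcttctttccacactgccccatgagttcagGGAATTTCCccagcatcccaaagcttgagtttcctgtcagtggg
CXCL6: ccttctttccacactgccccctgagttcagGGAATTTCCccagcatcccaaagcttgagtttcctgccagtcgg
CXCL8: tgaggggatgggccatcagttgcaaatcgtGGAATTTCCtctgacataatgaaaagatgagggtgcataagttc
The windows lie at chr4:73869285-73869358 (CXCL1, plus strand), chr4:74099229-74099302 (CXCL2, minus), chr4:74038724-74038797 (CXCL3, minus), chr4:73998724-73998797 (CXCL5, minus), chr4:73836559-73836632 (CXCL6, plus) and chr4:73740448-73740521 (CXCL8, plus). The run began 77 or 78 bases before the start in CXCL1, CXCL2 and CXCL3, and 89 to 91 bases before it in CXCL5, CXCL6 and CXCL8. It occurred on either strand in 162 of 35093 promoters of the same length (0.462%). The NF-κB consensus, searched on both strands, overlapped the run in 5 members and was held by 5.90% of all promoters. The consensus as searched was not found in the CXCL8 promoter window. In the other members its forward match began at the g just before the run, where CXCL8 has a t. The miss therefore does not show that CXCL8 lacks an NF-κB site. The AP-1 motif TGANTCA was found in CXCL8 alone among the 6, at 7.71% of all promoters, and so was TATAAA, at 11.5%. A match is a description of the sequence and not evidence of binding.

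Similarity within the family bears on how fragments were counted. CXCL1, CXCL2 and CXCL3 had 90.7% to 94.4% identical coding bases in pairs, and CXCL5 and CXCL6 had 87.5%. Of all 50-base windows of the coding transcript, 5.73% in CXCL1, 9.24% in CXCL2 and 5.26% in CXCL3 occurred unchanged in another member. No 100-base window did, and the longest shared run was 97 bases, between CXCL2 and CXCL3. CXCL5, CXCL6 and CXCL8 shared no 50-base window with another member. No source used here gives the read length or the handling of fragments with several matches, so the split of fragments among CXCL1, CXCL2 and CXCL3 is uncertain.

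In the libraries labelled H1299, the family rose after miR-29a-3p, most of all CXCL5 and CXCL1, while CXCL2 hardly moved. The test covered the 14635 genes that reached 1 FPKM in 2 or more libraries, among them 5 of the 6 members. All 5 were called higher and 0 lower by limma on log2(FPKM + 1), with a threshold of 0.05 on the Benjamini-Hochberg adjusted p. Over all genes tested, 7312 were called in that comparison, 25.1% higher and 24.8% lower. Bulk RNA cannot tell more RNA per cell from more cells that carry it.

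CXCL5, which binds CXCR2, was the highest member. It stood at 1157 and 1112 FPKM in the H1299-labelled miR-29a-3p libraries, against 209.7 and 206 FPKM in their controls, a ratio of means of 5.46. Both treated libraries lay far above both controls, with a log2 fold change at 2.44 ± 0.077 (SE, adjusted p = 9.8e-06). In the A549-labelled libraries it stood at 9.51 and 8.98 FPKM after miR-29a-3p, against 6.73 and 8.06 FPKM in controls. The groups did not overlap, but the log2 fold change of 0.29 ± 0.077 (SE) had an adjusted p of 0.051. It passed without A549 control replicate 2 (0.41, adjusted p = 0.021) and when genes had to average 5 FPKM (adjusted p = 0.037).

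CXCL1, a CXCR2 ligand first known as a melanoma growth factor, was the next highest member labelled H1299. It stood at 369 and 354 FPKM after miR-29a-3p and at 78.5 and 76.5 FPKM in controls, a ratio of 4.66 and a log2 fold change at 2.21 ± 0.075 (SE, adjusted p = 1.1e-05). Labelled A549, it stood at 12.3 and 10.4 FPKM after miR-29a-3p, against 6.38 and 6.11 FPKM in controls. That ratio was 1.82, with a log2 fold change at 0.76 ± 0.075 (SE, adjusted p = 0.0021), and the groups did not overlap in either line.

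CXCL8 (interleukin-8), which binds both CXCR1 and CXCR2, was the third highest member after miR-29a-3p labelled H1299. It stood at 122 and 103 FPKM after miR-29a-3p, against 45.3 and 36.0 FPKM in controls, a ratio of 2.77 and a log2 fold change at 1.45 ± 0.12 (SE, adjusted p = 0.00017). Labelled A549, it stood at 3.83 and 4.03 FPKM after miR-29a-3p, against 2.08 and 2.01 FPKM in controls. The ratio there was 1.92 and the log2 fold change 0.70 ± 0.12 (SE, adjusted p = 0.014). This A549-labelled call was lost without either miR-29a-3p library (adjusted p = 0.060 and 0.070) or either control (adjusted p = 0.061 and 0.071), with log2 fold changes of 0.67 to 0.72.

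CXCL3, a close copy of CXCL2 that also binds CXCR2, stood at 38.1 and 38.1 FPKM after miR-29a-3p labelled H1299, against 16.2 and 14.1 FPKM in controls. The ratio was 2.52, with a log2 fold change at 1.28 ± 0.095 (SE, adjusted p = 0.00012). Labelled A549, it stood at 1.10 and 1.22 FPKM after miR-29a-3p, against 0.699 and 0.458 FPKM in controls, or an estimated 17.8 and 16.2 fragments against 9.60 and 6.30. The ratio of 2.005 came with a log2 fold change at 0.46 ± 0.095 (SE, adjusted p = 0.025), a scale that understates changes at such low levels. The call was lost without either A549-labelled miR-29a-3p library (adjusted p = 0.078 and 0.11), without control replicate 2 (0.096), when the line was fitted alone (0.078) and with no filter on low values (0.058).

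CXCL2, an early product of inflamed epithelium and macrophages, differed from the rest. It stood at 46.8 and 46.4 FPKM after miR-29a-3p labelled H1299, against 43.2 and 39.8 FPKM in controls, a ratio of 1.12 and a log2 fold change at 0.16 ± 0.053 (SE, adjusted p = 0.040). That call was lost without either H1299-labelled miR-29a-3p library (adjusted p = 0.13 and 0.11), without H1299 control replicate 2 (0.17) or either A549 control (0.060 each), with the line fitted alone (0.075), with no filter (0.066) and with 1 variance prior for all genes (0.068). Labelled A549, CXCL2 stood at 60.2 and 57.1 FPKM after miR-29a-3p, against 41.9 and 41.1 FPKM in controls. The ratio was 1.41 and the log2 fold change 0.49 ± 0.053 (SE, adjusted p = 0.0029), a call that no left-out library removed.

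CXCL6, a ligand of both receptors, was near zero throughout. It was listed at 0.048 and 0.024 FPKM in the H1299-labelled miR-29a-3p libraries, about 1.28 and 0.640 estimated fragments. It was listed at 0 in both H1299-labelled controls and was not listed for A549, so no fold change is given. CXCL6 carries the same 9-base promoter run and lies between CXCL8 and CXCL1 on the chromosome.

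**Figure D1:**
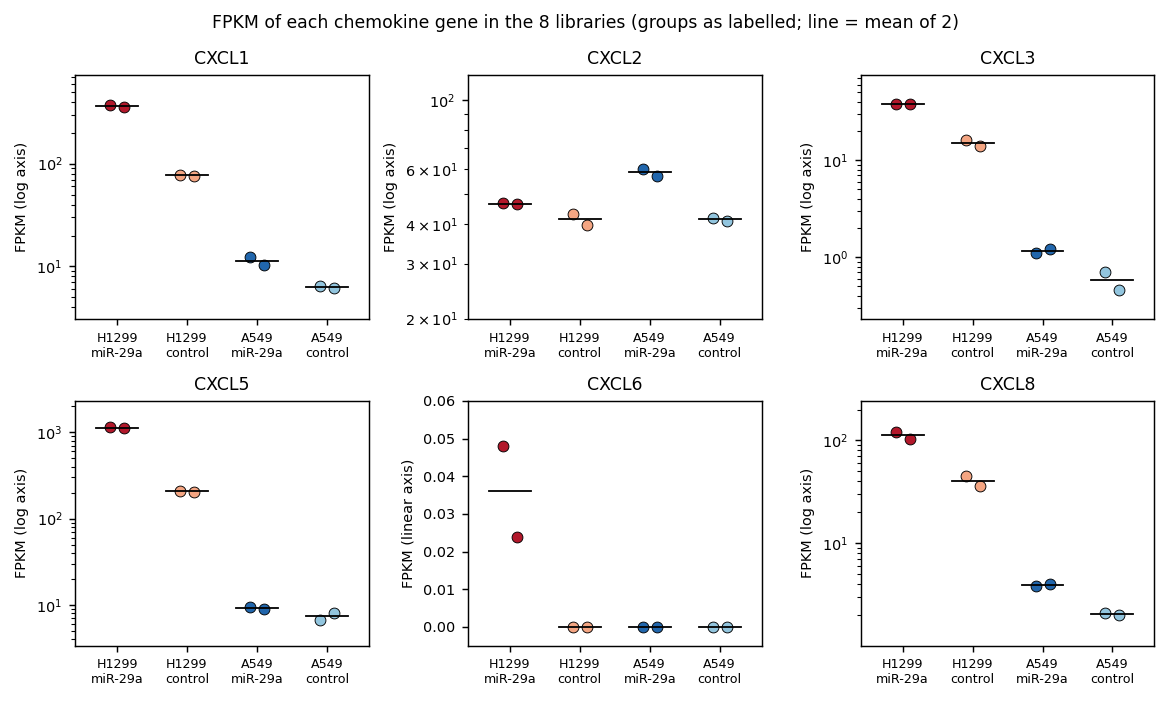
FPKM of each gene in the 8 libraries, 1 panel a gene, with points for libraries and a line at the mean of 2; axes are logarithmic except for CXCL6. CXCL1, CXCL3, CXCL5 and CXCL8 step down from left to right, from 369 to 6.11 FPKM in CXCL1, while CXCL2 stays between 39.8 and 60.2 FPKM.

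In the A549-labelled libraries, then, 4 of the 5 tested members were called higher after miR-29a-3p and 0 lower, against 16.0% of all genes tested, 7.30% higher and 8.66% lower. The exception was CXCL5, the gene that had changed most labelled H1299. Without either A549-labelled miR-29a-3p library the count fell to 2, namely CXCL1 and CXCL2.

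Every tested member responded differently in the lines. The difference between responses, H1299-labelled minus A549-labelled, was called for all 5 members, 4 with the larger rise labelled H1299 and 1 with the larger rise labelled A549. Over all genes tested, 37.3% were called, 19.2% in the first direction and 18.1% in the opposite one. The difference was 2.15 ± 0.11 for CXCL5 (SE, adjusted p = 9.9e-05) and 1.44 ± 0.11 for CXCL1 (SE, adjusted p = 0.00027), on the log2 scale. It was 0.82 ± 0.13 for CXCL3 (SE, adjusted p = 0.0045) and 0.76 ± 0.17 for CXCL8 (SE, adjusted p = 0.015). For CXCL2 it was -0.32 ± 0.075 (SE, adjusted p = 0.016).

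The CXCL3 difference depended on the pseudocount, since its A549-labelled level was so low. With 0.1 FPKM added in place of 1, it was 0.41 (adjusted p = 0.23), and the A549-labelled response itself was 0.91. The CXCL8 difference shrank to 0.56 with the same pseudocount and kept its call narrowly (adjusted p = 0.049). The CXCL2 difference had an adjusted p of 0.050 without A549 miR-29a-3p replicate 1 (-0.29) or A549 control replicate 2 (-0.31), both just above the threshold.

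**Figure D2:**
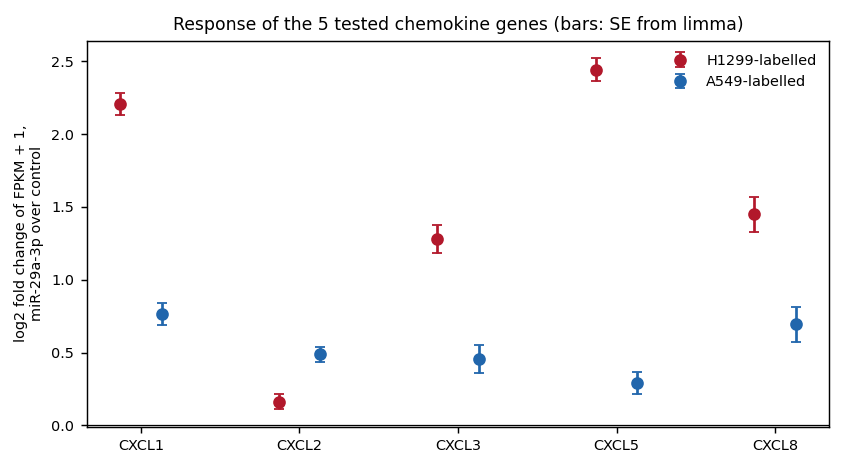
Log2 fold change of FPKM + 1, miR-29a-3p over control, for the 5 tested genes in the H1299-labelled (left point of each pair) and A549-labelled libraries, with bars of 1 SE from limma. The pairs lie far apart for CXCL5 (2.44 and 0.29) and in the opposite order for CXCL2 (0.16 and 0.49).

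Without miR-29a-3p the lines also differed in these genes. In the H1299-labelled controls, over the A549-labelled ones, the ratio of mean FPKM was 28.1 for CXCL5, 26.2 for CXCL3, 19.8 for CXCL8 and 12.4 for CXCL1. These 4 were called higher and 0 lower, with log2 differences of 4.64 ± 0.077, 3.36 ± 0.095, 3.76 ± 0.12 and 3.44 ± 0.075 (SE) and an adjusted p of at most 7.1e-07. Over all genes tested, 74.8% were called in that comparison, 29.8% higher and 45.0% lower, with a median log2 difference of -0.17. CXCL2 averaged 41.51 ± 2.43 FPKM labelled H1299 and 41.50 ± 0.55 FPKM labelled A549 (SD, n = 2 each). Its log2 difference was -0.00, with a 95% interval of 0.13 to either side (adjusted p = 0.99). After libraries were rescaled to a common median ratio, which moved the all-gene median to -0.03, CXCL2 was 0.18 higher labelled H1299 (adjusted p = 0.023).

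The make-up of the family therefore differed by label. In the H1299-labelled miR-29a-3p libraries the order of levels was CXCL5, CXCL1, CXCL8, CXCL2, CXCL3 and CXCL6, with no overlap between neighbours. In the H1299-labelled controls CXCL2 (39.8 to 43.2 FPKM) and CXCL8 (36.0 to 45.3 FPKM) overlapped in the middle of the same order. Labelled A549, CXCL2 led, followed by CXCL1 and CXCL5 after miR-29a-3p and by CXCL5 and CXCL1 in controls, then CXCL8 and CXCL3.

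CXCL5 made up 67.0% ± 0.33 of the summed FPKM of the family in the H1299-labelled miR-29a-3p libraries and 54.3% ± 1.35 in their controls (SD, n = 2 each). CXCL2 made up 2.75% ± 0.073 and 10.8% ± 0.22 in the same groups. Labelled A549, CXCL2 held 69.6% ± 0.44 of the sum after miR-29a-3p and 71.8% ± 0.92 in controls (SD, n = 2 each). The sum itself was 1693 ± 55.7 FPKM after miR-29a-3p and 382 ± 14.7 in controls labelled H1299, and 84.3 ± 3.66 and 57.8 ± 0.017 FPKM labelled A549 (SD, n = 2 each). The ratios of these sums were 4.43 labelled H1299 and 1.46 labelled A549.

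The sum over the near-identical CXCL1, CXCL2 and CXCL3 was 446 ± 11.0 FPKM after miR-29a-3p and 134 ± 5.31 in controls labelled H1299 (SD, n = 2 each), a ratio of 3.32. Labelled A549 it was 71.2 ± 3.43 and 48.3 ± 0.91 FPKM (SD, n = 2 each), a ratio of 1.47. Both sums are descriptions and were not tested.

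**Figure D3:**
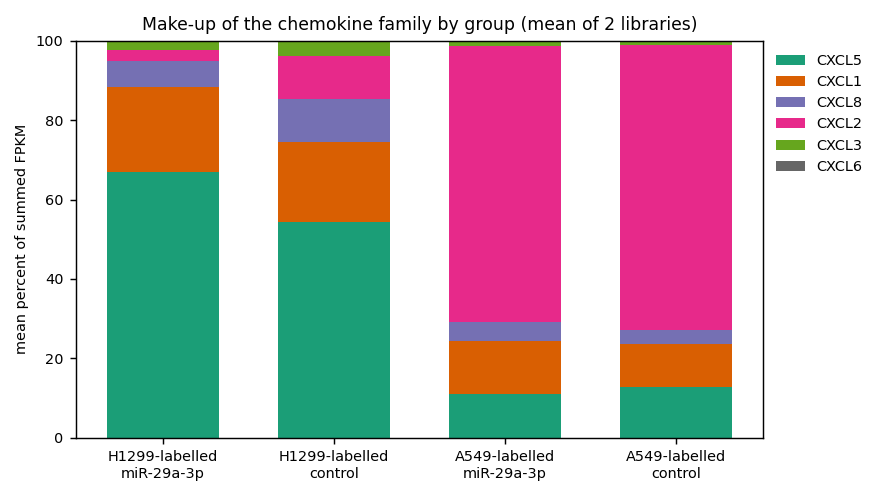
Percent of the summed FPKM of the 6 genes held by each gene, as the mean of 2 libraries in each group. CXCL5 fills 67.0% and 54.3% of the H1299-labelled bars, and CXCL2 fills 69.6% and 71.8% of the A549-labelled ones.

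The 6 genes lie within 359 kb of chromosome 4 on GRCh38 (GENCODE release 29), CXCL8 (ENSG00000169429), CXCL6 (ENSG00000124875) and CXCL1 (ENSG00000163739) on the plus strand and CXCL5 (ENSG00000163735), CXCL3 (ENSG00000163734) and CXCL2 (ENSG00000081041) on the minus strand. The table listed 6 other genes between them, among them the platelet chemokine genes PF4 and PPBP, and none of those passed the filter on low values. Within 500 kb to either side, 3 further genes passed. EREG, the epidermal growth factor family member epiregulin, averaged 13.8 ± 1.10 FPKM after miR-29a-3p and 54.1 ± 1.55 in controls labelled H1299 (SD, n = 2 each), with a log2 fold change at -1.90 (adjusted p = 1.2e-05). AREG, the related growth factor amphiregulin, averaged 11.8 ± 0.0042 and 38.6 ± 0.27 FPKM in the same groups, a log2 fold change at -1.63 (adjusted p = 1.0e-05).

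Both growth factor genes thus fell labelled H1299, where the tested chemokine genes of the same region rose. CXCL2, the member nearest to them, rose least, by 0.16. Labelled A549, EREG averaged 2.14 FPKM after miR-29a-3p and 2.27 in controls (adjusted p = 0.64), and AREG 1.31 and 1.51 FPKM (adjusted p = 0.20). Like CXCL1, CXCL3, CXCL5 and CXCL8, both were higher in the H1299-labelled controls than in the A549-labelled ones, by 4.08 and 3.98 on the log2 scale. ANKRD17 had a log2 fold change of -0.22 labelled H1299 (adjusted p = 0.026) and -0.07 labelled A549 (adjusted p = 0.50). The H1299-labelled call was lost without miR-29a-3p replicate 2 (adjusted p = 0.13) or control replicate 2 (0.13), with the line fitted alone (0.060) and with rescaled libraries (0.072).

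**Figure D4:**
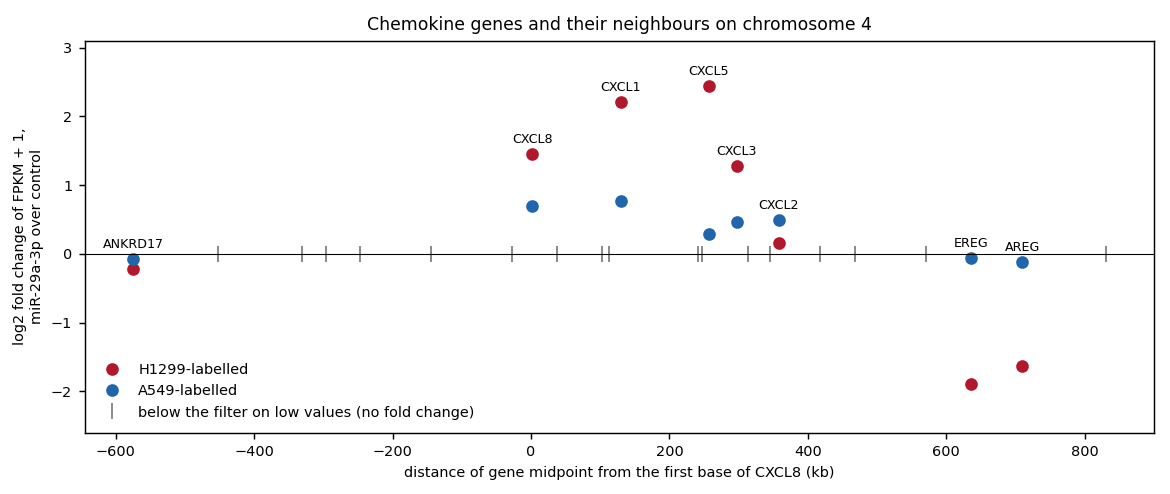
Log2 fold change of FPKM + 1, miR-29a-3p over control, of tested genes by their distance in kb from the first base of CXCL8, with grey ticks for genes below the filter. The 5 tested chemokine genes lie above 0 in both lines, and EREG (-1.90) and AREG (-1.63) lie below it labelled H1299.

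The receptors of these chemokines were barely detected. CXCR1 and CXCR2 averaged at most 0.026 and 0.023 FPKM in any group, and ACKR1, a decoy receptor that binds them without signalling, at most 0.079 FPKM. None passed the filter.

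The counts of the gene lists that follow are to be read against the share of all genes called, which was 25.1% higher and 24.8% lower labelled H1299, and 7.30% higher and 8.66% lower labelled A549. Other CXC chemokines were mostly under the filter on low values, and of 11 listed, 3 were tested. Labelled H1299, 2 rose and 1 fell, and labelled A549, 1 rose and 1 fell. CXCL10, an interferon-induced attractant of T cells, averaged 14.9 ± 0.34 FPKM after miR-29a-3p and 3.53 ± 0.22 in controls labelled H1299 (SD, n = 2 each, adjusted p = 2.3e-05). Labelled A549 it averaged 31.3 ± 3.20 FPKM after miR-29a-3p and 43.7 ± 2.99 in controls (SD, n = 2 each, log2 fold change -0.47, adjusted p = 0.015). CXCL11, its close relative, rose by 1.61 labelled H1299 and by 0.44 labelled A549 (adjusted p = 3.3e-05 and 0.018). The A549-labelled calls were lost with the line fitted alone (CXCL10, adjusted p = 0.067) and without miR-29a-3p replicate 1 (0.062 and 0.080) or control replicate 2 (0.081 and 0.090). The CXCL11 call was also lost without miR-29a-3p replicate 2 (0.075) or control replicate 1 (0.050).

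Of the ligands and receptors that act upstream of the family, 9 of 15 were tested, and labelled H1299, 5 rose and 1 fell, against 25.1% higher and 24.8% lower over all genes. The median log2 fold change was 0.34, against 0.00 over all genes. Among those that rose, IL1B and TLR3 passed the filter only through the H1299-labelled miR-29a-3p group, at means of 1.19 and 1.29 FPKM. Every other group averaged under 1 FPKM, so the filter favoured a rise for both, and the count and median rest partly on it. The number that rose was 3 without H1299 miR-29a-3p replicate 1, and 1 when genes had to average 5 FPKM, a filter that leaves fewer genes to test. IL1A, the alarm cytokine interleukin-1 alpha, averaged 8.05 ± 0.274 FPKM after miR-29a-3p and 1.84 ± 0.090 in controls (SD, n = 2 each), with a log2 fold change at 1.67 (adjusted p = 2.5e-05). The tumour necrosis factor receptor TNFRSF1A rose by 0.34 (adjusted p = 0.018), a call lost without miR-29a-3p replicate 1 (0.092) or control replicate 2 (0.090). EGFR, the receptor of epiregulin and amphiregulin, averaged 27.9 ± 0.25 and 52.6 ± 1.45 FPKM (SD, n = 2 each, adjusted p = 0.00021). Labelled A549, 1 of the 9 rose and 1 fell (against 7.30% higher and 8.66% lower over all genes), with a median of -0.04, and TNFRSF1A fell by 0.65 (adjusted p = 0.0058). IL1A was at 0.268 and 0.313 FPKM there.

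Of 14 adaptors and kinases of the same pathway, all tested, 3 rose and 3 fell labelled H1299 (median -0.05), near the 25.1% higher and 24.8% lower over all genes. Labelled A549, 1 rose and 0 fell (median 0.08), against 7.30% higher and 8.66% lower. With a mean of 5 FPKM required, 1 rose labelled H1299. MYD88, the adaptor of interleukin-1 and Toll-like receptors, averaged 8.35 ± 2.26 FPKM after miR-29a-3p and 1.92 ± 0.36 in controls labelled H1299 (SD, n = 2 each, adjusted p = 0.00038). MAP3K7, the kinase TAK1, rose by 0.53 (adjusted p = 0.00096). TRAF2, which relays tumour necrosis factor signals, fell by 0.89 (adjusted p = 4.3e-05). MAPKAPK2, which stabilises AU-rich messages, fell by 0.22 (adjusted p = 0.0096, and 0.051 without H1299 control replicate 1). IRAK2, a kinase-like partner of MYD88, fell by 0.19 labelled H1299 (adjusted p = 0.0059) and rose by 0.66 labelled A549 (adjusted p = 0.00035).

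Of 14 NF-κB subunits and other transcription factors, 13 were tested, and 3 rose and 6 fell labelled H1299 (median -0.27), against 25.1% higher and 24.8% lower over all genes. Labelled A549, 6 rose and 0 fell (median 0.27), against 7.30% higher and 8.66% lower. Without either A549-labelled miR-29a-3p library, or without A549 control replicate 2, 3 rose there. NFKB2 averaged 31.6 ± 0.081 FPKM after miR-29a-3p and 48.6 ± 0.70 in controls labelled H1299, against 41.6 ± 0.017 and 24.2 ± 0.63 FPKM labelled A549 (SD, n = 2 each, adjusted p = 7.2e-05 and 0.00031). NFKBIZ, a coactivator known to be needed for several neutrophil chemokine genes, rose in both lines, by 0.82 labelled H1299 and 0.62 labelled A549 (adjusted p = 0.00024 and 0.0042). EGR1, an immediate early factor, rose by 1.28 and 1.19 in the same order (adjusted p = 7.8e-05 and 0.00079).

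CEBPB, which cooperates with NF-κB at inflammatory promoters, averaged 103 ± 32.9 FPKM after miR-29a-3p and 373 ± 8.25 in controls labelled H1299 (SD, n = 2 each, adjusted p = 0.00037). CEBPD, its relative, rose by 0.91 there (adjusted p = 0.0087, and 0.051 with the line fitted alone), and FOSL1, an AP-1 subunit, fell by 0.74 (adjusted p = 0.00016). RELB, the usual partner of NFKB2, rose by 0.75 labelled A549 (adjusted p = 0.019). That call was lost without either miR-29a-3p library (0.084 and 0.083) or either control (0.079 and 0.090), and with no filter on low values (0.053).

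Of 9 feedback inhibitors, many of them NF-κB targets, 4 rose and 3 fell labelled H1299 (median 0.45), against 25.1% higher and 24.8% lower over all genes. The number that rose there was 3 to 4 with 1 library left out. Labelled A549, 3 rose and 0 fell (median 0.40), against 7.30% higher and 8.66% lower, and 1 rose with the line fitted alone and 6 with a mean of 5 FPKM required. SOCS3 and BCL3 rose by 0.64 and 0.63 labelled H1299 (adjusted p = 0.00042 and 0.00059). NFKBIA, the inhibitor that holds NF-κB in the cytoplasm, rose by 0.52 (adjusted p = 0.017). That call was lost without either H1299-labelled miR-29a-3p library (0.075 and 0.058) or either control (0.081 and 0.051). NFKBIB fell by 0.99 (adjusted p = 0.00016). DUSP1, a phosphatase that switches off stress kinases, averaged 85.6 ± 2.99 FPKM after miR-29a-3p and 418 ± 6.14 in controls labelled H1299 (SD, n = 2 each, adjusted p = 9.8e-06). It rose by 0.40 labelled A549 (adjusted p = 0.015), and lost that call without either miR-29a-3p library (0.065 and 0.072) and with the line fitted alone (0.072). TNFAIP3, a deubiquitinase induced by NF-κB, rose in both lines, by 0.46 labelled H1299 and 0.59 labelled A549 (adjusted p = 0.0042 and 0.0067).

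Of 10 factors that act on AU-rich messages, all tested, 4 rose and 2 fell labelled H1299 (median 0.12), against 25.1% higher and 24.8% lower over all genes. Labelled A549, 2 rose and 2 fell (median 0.05), against 7.30% higher and 8.66% lower, and 0 or 1 fell on leaving out any single library of the 8. Without any single A549-labelled library 1 rose there, without any single H1299-labelled one 1 fell labelled H1299, and with the H1299-labelled line fitted alone 2 rose. ZFP36 rose by 1.41 labelled H1299 (adjusted p = 0.0075, and 0.053 with the line fitted alone), with treated libraries that differed widely (19.7 ± 9.94 FPKM, against 6.36 ± 0.38 in controls, SD, n = 2 each). ZC3H12A, the ribonuclease regnase-1, rose by 0.59 labelled H1299 and by 0.26 labelled A549 (adjusted p = 0.00028 and 0.028). KHSRP, which promotes decay, rose by 0.33 labelled H1299 (adjusted p = 0.0014), and CNOT1, the deadenylase scaffold, fell by 0.48 (adjusted p = 0.0012). ZFP36L2 rose by 0.71 labelled A549 (adjusted p = 0.0012). ZFP36L1 fell by 0.46 there (adjusted p = 0.037), and HNRNPD fell by 0.22 labelled H1299 and by 0.25 labelled A549 (adjusted p = 0.025 and 0.046). The calls of ZC3H12A and ZFP36L1 labelled A549 were lost on leaving out any single library of that label (adjusted p = 0.056 to 0.16) and with the line fitted alone (0.11 and 0.064), and also without either H1299-labelled miR-29a-3p library for ZC3H12A (0.054 and 0.053) or either H1299-labelled control for ZFP36L1 (0.060 each). ZFP36L1 also lost its call with no filter on low values (0.088). The HNRNPD call labelled H1299 was lost without any 1 of the 4 libraries of that label (0.067 to 0.10) and with rescaled libraries (0.053). Labelled A549, it was lost without any 1 of 7 libraries (0.074 to 0.15), the exception being A549 control replicate 1, and also with a pseudocount of 0.1 (0.051), with no filter (0.078), with 1 variance prior for all genes (0.057) and with the line fitted alone (0.12).

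Other genes of the neutrophil and acute-phase response rose beside the family labelled H1299. Of 11 tested out of 12, 10 rose and 1 fell, with a median log2 fold change of 0.88, against 25.1% higher and 24.8% lower over all genes. CSF3, SAA1 and SAA2 averaged under 1 FPKM in every group but H1299-labelled miR-29a-3p. They passed the filter only through that group, so the filter favoured a rise for them, and the count and median rest partly on it. The number that rose was 8 to 10 with 1 library left out and 3 with a mean of 5 FPKM required, which leaves fewer genes to test. Labelled A549, 4 rose and 0 fell, with a median of 0.18, against 7.30% higher and 8.66% lower. CSF3, the growth factor of neutrophils, averaged 8.58 ± 0.026 FPKM after miR-29a-3p and 0.804 ± 0.133 in controls labelled H1299 (SD, n = 2 each), with a log2 fold change at 2.41 (adjusted p = 9.8e-06). CCL20 rose by 1.45 there (adjusted p = 2.0e-05), and complement C3 averaged 176 ± 1.69 and 84.3 ± 1.51 FPKM (SD, n = 2 each, adjusted p = 0.0001). LIF, a cytokine of the interleukin-6 family, was the gene of this list that fell, by 0.88 (adjusted p = 2.7e-05). Labelled A549, ICAM1, the adhesion molecule that neutrophils grip, averaged 59.4 ± 1.98 FPKM after miR-29a-3p and 32.5 ± 1.47 in controls (SD, n = 2 each, adjusted p = 0.0010), and LIF rose by 0.53 (adjusted p = 0.0011). ICAM1 rose labelled H1299 too, by 0.98 (adjusted p = 8.6e-05). CCL20 and C3 were also called higher labelled A549, by 0.42 and 0.61 (adjusted p = 0.0095 and 0.0044), from control means under 1 FPKM. CCL20 stayed under 1 FPKM after miR-29a-3p as well (0.67, against 0.25 in controls). That C3 call was lost with the line fitted alone (adjusted p = 0.051). The CCL20 call was lost without A549 control replicate 2, where the rise was 0.39.

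Of 11 proteases that trim these chemokines, 6 were tested, and 4 rose and 1 fell labelled H1299 (median 0.53), against 25.1% higher and 24.8% lower over all genes. With a mean of 5 FPKM required, 2 rose and 0 fell. Labelled A549, 0 rose and 4 fell (median -0.69), against 7.30% higher and 8.66% lower. MMP7, a protease of epithelial cells, rose by 1.58 labelled H1299 (adjusted p = 2.0e-05). ANPEP, an aminopeptidase of the cell surface, averaged 7.57 ± 0.49 FPKM after miR-29a-3p and 5.12 ± 0.013 in controls labelled H1299, against 9.25 ± 0.43 and 15.8 ± 1.25 FPKM labelled A549 (SD, n = 2 each, adjusted p = 0.0020 and 0.0025). The collagen-degrading enzymes MMP14 and MMP2 fell by 1.52 and 1.23 labelled A549 (adjusted p = 0.00022 and 0.0011). MMP2 was also the protease that fell labelled H1299, by 0.57 (adjusted p = 0.0035).

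**Figure D5:**
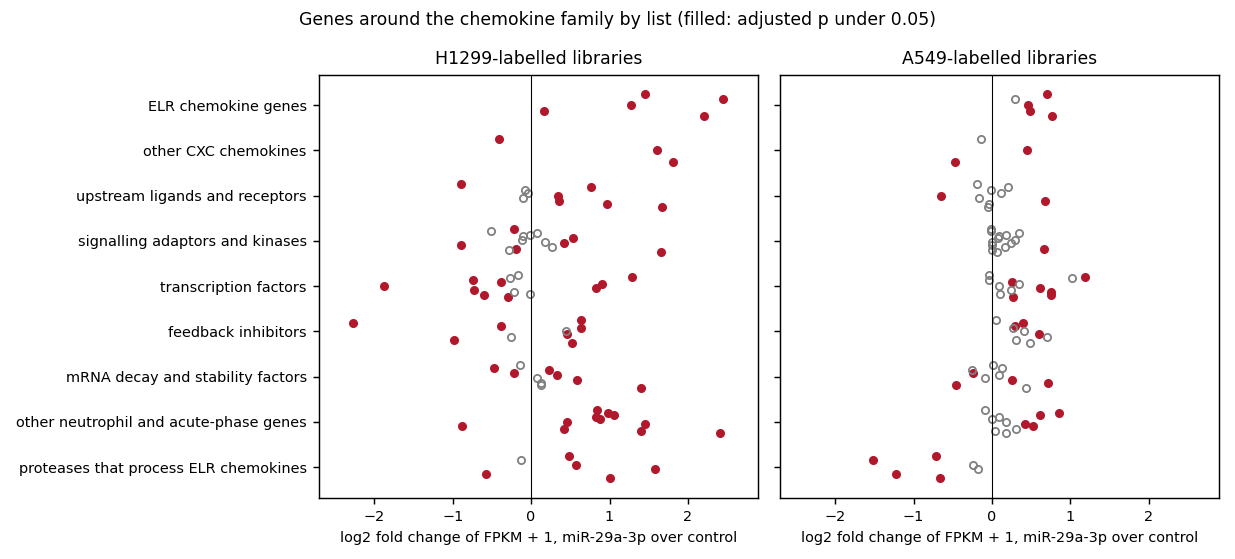
Log2 fold change of FPKM + 1, miR-29a-3p over control, of each tested gene by list, H1299-labelled on the left and A549-labelled on the right, with filled points at an adjusted p under 0.05. Medians of the neutrophil and acute-phase list are 0.88 and 0.18, and those of the proteases 0.53 and -0.69.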

How the data were processed

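The labels' protocols give TRIzol for RNA extraction and a VAHTS kit for libraries. Expression came as a single table, deposited by the authors in FPKM for every gene and library, as its headers state. StringTie and GRCh38 appear in the submitters' processing notes. No source used here gives versions, aligner, annotation, strand setting or read length. A gene listed for 1 line only was taken as 0 in the other.

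Values were used without further scaling. limma 3.58.1 in R 4.3.3 was run on log2(FPKM + 1) for the 14635 genes that reached 1 FPKM in 2 or more libraries, as 4 group means with a variance prior that followed expression (4 residual and 2.36 prior degrees of freedom). Every adjusted p is from limma with Benjamini-Hochberg adjustment over all genes tested, and the threshold was 0.05. On simulated data for the H1299-labelled comparison (14635 genes), 96 of 100 genes changed by 1 on the log2 scale and 97 of 100 changed by 2 were recovered. The tests had been planned for counts or normalised values, and the form for FPKM was used. Library totals were estimated from the value of 1 fragment among genes of low FPKM, using GENCODE 29 exon lengths. Replicates differed by more than sampling noise (chi-square of 3.57 to 4.44 per degree of freedom over 371 to 398 genes), and each was counted. Separate cultures are not stated in the labels, so a p-value reflects only how these libraries vary, possibly for technical reasons.

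Members and lists were chosen with earlier results of these data known. Named were all members, the 3 receptors, up to 3 called genes per list, line and direction with at least 5 FPKM in a group of that line, tested genes within 500 kb, CDKN2A and ALDH1A1, and the genes most like the members, of which that for CXCL3 and CXCL8 is not reported here. Alternatives were another pseudocount (0.1 or 0.5), no filter or a mean of at least 5 FPKM, rescaled libraries, 1 variance prior, each line alone, a replicate block and leaving out each library.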

Additional observations from a re-analysis of the deposited data

Results flagged for a closer look

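The responses of 5 members differed between the lines by the test of the difference itself, H1299-labelled minus A549-labelled. On the log2(FPKM + 1) scale the differences were 2.15 for CXCL5, 1.44 for CXCL1, 0.82 for CXCL3, 0.76 for CXCL8 and -0.32 for CXCL2, with adjusted p-values from limma of 9.9e-05, 0.00027, 0.0045, 0.015 and 0.016. In the tested comparison, 37.3% of all 14635 genes were called. The CXCL8 difference was 0.56 with a pseudocount of 0.1 FPKM (adjusted p = 0.049). With a pseudocount of 0.1 FPKM the CXCL3 difference was 0.41 (adjusted p = 0.23), and the CXCL2 call was lost without A549 miR-29a-3p replicate 1 or A549 control replicate 2 (adjusted p = 0.050 each). What lies behind the differences was not tested, and the line labels disagree with marker genes.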

How the results depend on the processing

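Over the members and the counts of calls, every direction was kept under the alternatives run except for CXCL2 between the controls, whose log2 difference was 0.18 with rescaled libraries. The number of members called after miR-29a-3p ranged from 2 to 4 labelled A549 when 1 library was left out (2 without either A549-labelled miR-29a-3p library), and from 4 to 5 labelled H1299. The number of genes called labelled A549 was 1066 to 1937 when 1 library was left out and 1071 with the line fitted alone, against 2336. With genes required to average 5 FPKM, which leaves fewer to test, the calls were 3773 labelled H1299, 2984 for the difference between responses and 4923 between controls. Same-numbered replicates did not deviate together (r of 0.018 labelled A549 and -0.011 labelled H1299), and labels give the numbers no meaning. With the replicate block, 1969 genes were called labelled A549, 7134 labelled H1299, 5202 for the difference between responses and 10877 between controls, and the number of members called was 4, 5, 5 and 4. The A549-labelled calls of HNRNPD and ZFP36L1 were lost under the block (adjusted p = 0.058 and 0.062). Of 59 named calls outside the family, 16 were lost under at least 1 alternative, applied to these genes after seeing the data. Depth limits CXCL3 labelled A549 and CXCL6 throughout.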

Other observations

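Genes whose levels most resembled those of the family were ranked by Pearson correlation over the 8 libraries with the mean of the standardised values of the 5 tested members. The 7743 genes compared reached 5 FPKM in a group, the libraries form 4 groups, and the correlations are descriptions. The 8 highest were DTX3L (r = 0.998), NFKBIZ (0.998), CRTAP (0.996), TRAPPC6A (0.995), AP002807.1 (0.994), ZDHHC9 (0.994), ADAR (0.993) and BECN1 (0.993). DTX3L, a ubiquitin ligase, averaged 27.2 FPKM after miR-29a-3p and 17.4 in controls labelled H1299, and 12.9 and 8.65 FPKM labelled A549. NFKBIZ averaged 12.1 and 6.43 FPKM labelled H1299, and 3.70 and 2.06 FPKM labelled A549.

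For single members, the nearest gene was S100A11 for CXCL1 (r = 0.998), PLAU for CXCL2 (0.977) and TRIM22 for CXCL5 (0.9998). CXCL1, CXCL3, CXCL5 and CXCL8 correlated with each other at 0.991 to 0.999, and CXCL2 with these 4 at -0.27 to -0.17. PLAU, the urokinase gene, averaged 141 FPKM after miR-29a-3p and 129 in controls labelled H1299, and 167 and 134 FPKM labelled A549.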
